A study of Mus musculus with 25 samples.

Results

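B cell and plasma cell genes were examined in the stroma of paired liver and peritoneal tumours of mice. The 9 genes Ms4a1, Cd79a, Cd79b, Pax5, Cd22, Fcer2a, Blk, Mzb1 and Jchain were chosen by name, and all 9 were found by symbol among the 24984 genes of the count table. The tumours were raised in athymic nude mice (Crl:NU(NCr)-Foxn1nu) by injecting BMEL cells, a clonal line of bipotential progenitors from the liver of a C57BL/6 x C3H mouse embryo, into the liver. The injected cells carried human H-Ras with an activating mutation on a bicistronic vector with a fluorescent reporter, and each mouse had a liver tumour and a peritoneal tumour. The dissociated tumours were sorted into reporter-positive tumour cells and reporter-negative stromal cells, which gave 4 libraries for each of liver stroma, peritoneal stroma, liver tumour cells and peritoneal tumour cells, 1 from each of 4 mice. Cultured BMEL WT (empty vector) cells and the RasLOW and RasHIGH populations, sorted for weak or strong reporter signal, gave 3 libraries each. The labels give neither the age and sex of the nude mice nor which Ras population was injected.

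B cells are lymphocytes that recognise antigen through a membrane immunoglobulin, the B-cell receptor, and after activation some of them become plasma cells, which secrete antibody. Nude mice lack a functional thymus and therefore mature T cells, but they do form B cells, so that antibody responses needing T-cell help are poor while the B lineage is present. In the normal liver B cells are a part of the lymphocyte pool, and the peritoneal cavity is known for a population of its own, the B-1 cells. Among the genes examined, Cd79a and Cd79b encode the signalling pair of the B-cell receptor, Blk a Src-family kinase below it, and Cd22 an inhibitory sialic acid-binding co-receptor. Ms4a1 encodes the surface protein CD20 and Fcer2a the low-affinity IgE receptor CD23, both found on mature B cells. Pax5 is the transcription factor that maintains B-cell identity, Mzb1 an endoplasmic reticulum protein that helps immunoglobulin assembly, and Jchain the joining chain of polymeric IgM and IgA. Several are not unique to the lineage, since plasmacytoid dendritic cells can also express Cd22, Blk, Mzb1 and Jchain.

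Promoter sequences were at hand for 5 of the 9 genes. The 150 bases before the start site are given for a gene of each kind of outcome below: Cd79a, which was lower in peritoneal stroma, Cd22, which was not called, and Jchain, the most variable gene. They are RefSeq sequences of build GRCm38.p6, written 5′ to 3′ on the strand of the gene, and capitals mark the motif matches described after them.
Cd79a, chr7:24897347-24897496, + strand: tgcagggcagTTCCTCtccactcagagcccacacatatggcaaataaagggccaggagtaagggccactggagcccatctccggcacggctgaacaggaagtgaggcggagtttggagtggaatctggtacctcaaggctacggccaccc
Cd22, chr7:30879029-30879178, - strand: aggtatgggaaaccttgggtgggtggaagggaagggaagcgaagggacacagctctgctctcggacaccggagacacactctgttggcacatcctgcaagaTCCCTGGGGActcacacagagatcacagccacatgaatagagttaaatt
Jchain, chr5:88527898-88528047, - strand: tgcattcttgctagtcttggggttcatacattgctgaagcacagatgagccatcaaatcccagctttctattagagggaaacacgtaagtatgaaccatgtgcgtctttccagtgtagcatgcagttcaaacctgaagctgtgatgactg

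Each window was searched on both strands for 3 motifs that do not overlap one another in these windows. The EBF-type motif TCCCNNGGGA stood 49 bases before the start in Cd22 and in none of the other windows at hand, and 0.447% of all 32851 promoters held it in the same window. The PU.1-type motif GAGGAA, read as TTCCTC on this strand, stood 140 bases before the start in Cd79a, and 14.5% of all promoters held it. The octamer ATGCAAAT, which Oct factors bind in immunoglobulin promoters, was in none of these windows and in 0.998% of all promoters. These matches describe the letters of the windows and nothing about binding.

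Total counts ran from 27048224 to 40345401 in liver stroma and from 23129017 to 32723797 in peritoneal stroma, so that 3 counts corresponded to 0.0787 to 0.141 CPM. CPM, the unit of level used here, are counts scaled to library size and TMM factors. A floor from counts covers counting error only, while the confidence intervals of log2 fold changes also take in the spread between libraries. Errors beside CPM are SDs over 4 mice. Groups were compared by the quasi-likelihood test of edgeR with p adjusted by Benjamini-Hochberg across every gene tested, and a gene was called when the adjusted p was under 0.05 and the absolute log2 fold change over 1. Log2 fold changes are those of peritoneal over liver stroma, so that negative values are lower in the peritoneum. Ptprc, the pan-leukocyte gene Cd45, lay between 927 and 1020 CPM in liver stroma and between 501 and 598 CPM in peritoneal stroma. Over the 8 tumour cell libraries it lay between 1.06 and 12.2 CPM. The 12.2 CPM were in the peritoneal library of mouse 1, and the next highest, the liver library of mouse 4, had 2.66 CPM. Leukocyte RNA was thus measured mainly in the reporter-negative sort.

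In the stroma, 7 of the 9 genes were called lower in the peritoneal than in the liver tumours, and none was called higher. Over all 14755 genes tested, 3.32% were called lower and 9.98% higher in peritoneal stroma. The median log2 fold change was -2.05 over the 9 genes and -0.02 over all genes. The libraries of both sites did not overlap for 8 of the 9 genes, with the peritoneal ones lower in each, against 17.9% of all genes tested. For these 8 genes the peritoneal library was the lower one in all 4 mice. Cd22 was the exception. These are bulk libraries, in which fewer B-lineage cells and less RNA per cell cannot be told apart.

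**Figure D1:**
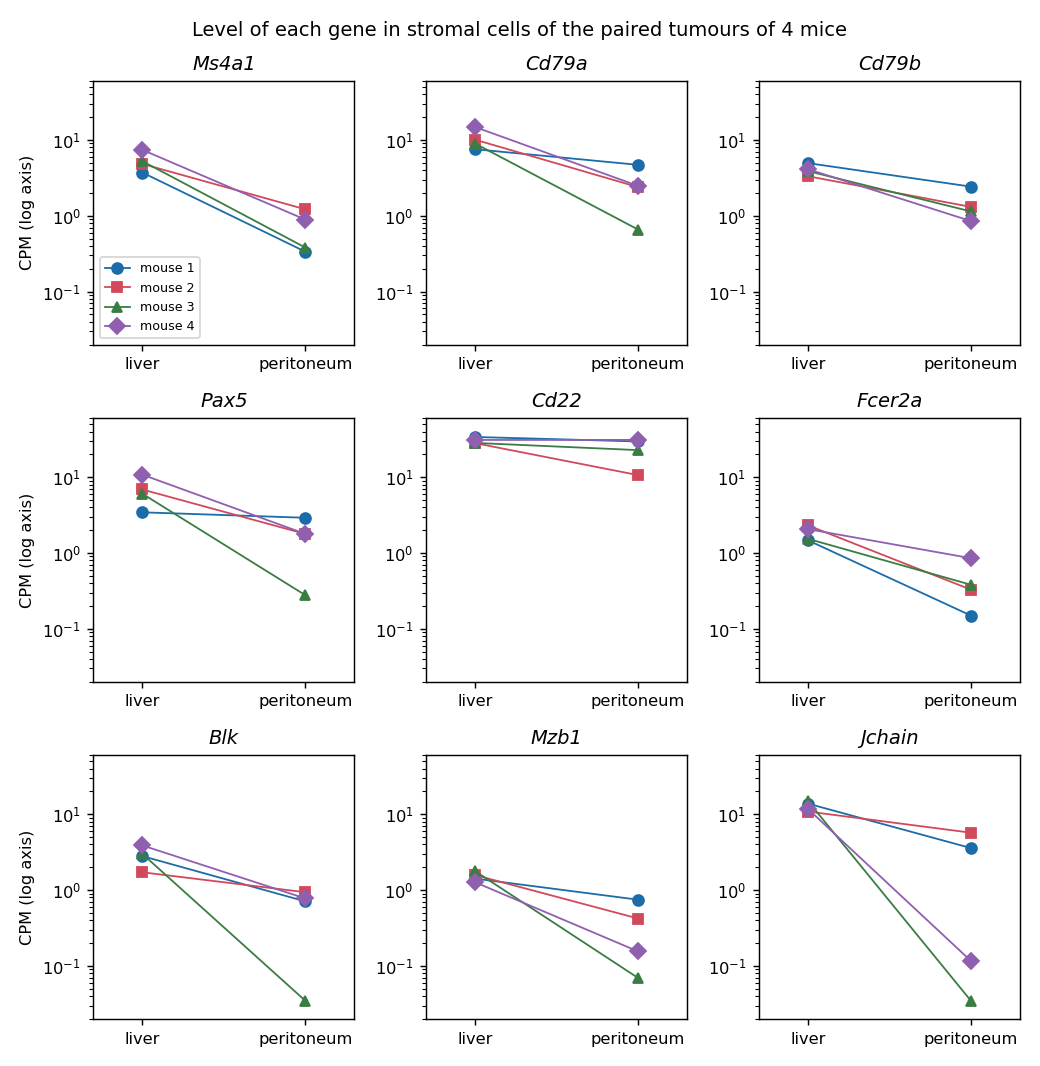
Level of each of the 9 genes in CPM (log axis) in stromal cells of the liver and of the peritoneal tumour, with 1 marker and line per mouse. The lines fall from liver to peritoneum in all 4 mice for 8 genes, while Cd22 stayed near 30 CPM in 2 mice and was lowest, at 10.6 CPM, in the peritoneal library of mouse 2.

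Among the genes of the receptor complex, Cd79a (chr7:25682400-25687216 on mm9, + strand) had 7.56, 10.1, 8.98 and 14.8 CPM in the liver stroma of mice 1 to 4. The peritoneal stroma of the same mice had 4.71, 2.39, 0.658 and 2.48 CPM. The groups were thus separate, and the smallest gap within a mouse was that of mouse 1. This made a log2 fold change of -1.97, with a standard error of 0.47 and an adjusted p of 0.0109 by edgeR. Its partner Cd79b (chr11:106172655-106176076, - strand) had 4.96, 3.33, 3.89 and 4.13 CPM in liver stroma and 2.43, 1.31, 1.14 and 0.853 CPM in peritoneal stroma. Mouse 1 was again the highest of the peritoneal libraries, and the groups did not overlap. Cd79b had a log2 fold change of -1.46, with a standard error of 0.32 and an adjusted p of 0.00623, the smallest change among the called genes.

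Blk (chr14:63991674-64036024, - strand), the kinase, had 2.81, 1.72, 3.01 and 3.89 CPM in liver stroma. In peritoneal stroma it had 0.710, 0.937, 0.0346 and 0.776 CPM, where the value of mouse 3 was 1 count. No peritoneal library reached the lowest liver library. Blk had a log2 fold change of -2.18, with a standard error of 0.59 and an adjusted p of 0.0193. This call was lost without the liver library of mouse 4, with an adjusted p of 0.0540.

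The surface genes of mature B cells showed the same order of sites. Ms4a1 (chr19:11324654-11340669, - strand) had 3.73, 4.84, 5.26 and 7.42 CPM in liver stroma and 0.336, 1.22, 0.381 and 0.892 CPM in peritoneal stroma. The highest peritoneal value, that of mouse 2, was well under the lowest liver value, that of mouse 1. Its log2 fold change of -2.88, with a standard error of 0.41 and an adjusted p of 6.09e-04, was the largest in size of the 9 genes. Fcer2a (chr8:3681737-3694174, - strand) was low throughout, with 1.47, 2.32, 1.54 and 2.06 CPM in liver stroma and 0.149, 0.328, 0.381 and 0.853 CPM in peritoneal stroma. The peritoneal values stood for 4, 7, 11 and 22 counts, and the groups did not overlap. Fcer2a had a log2 fold change of -2.05, with a standard error of 0.45 and an adjusted p of 0.00681.

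Pax5 (chr4:44544017-44724318, - strand), the transcription factor, had 3.44, 6.88, 6.05 and 10.8 CPM in liver stroma and 2.91, 1.78, 0.277 and 1.78 CPM in peritoneal stroma. In mouse 1 the sites were close to each other, while in the other mice they were far apart. For Pax5 this came to a log2 fold change of -1.96, with a standard error of 0.56 and an adjusted p of 0.0254. The call was lost without the peritoneal library of mouse 2 or 4, with adjusted p values of 0.0627 and 0.0554, and without the liver library of mouse 2 or 4, with 0.0503 and 0.0703. In the mm9 annotation 125 exon bases of Pax5 are shared with Gm12462 on the opposite strand, and how strand was treated in counting is not given in the sources used here.

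Cd22 (chr7:31650421-31665361, - strand), the inhibitory co-receptor, had the highest CPM of the 9 genes in both stromal groups and did not pass the test. Its levels were 33.9, 28.1, 28.3 and 30.9 CPM in liver stroma and 29.6, 10.6, 22.7 and 31.0 CPM in peritoneal stroma. The groups overlapped, with the peritoneal libraries of mice 1 and 4 inside the range of the liver libraries. The log2 fold change was -0.32 (95% confidence interval -0.94 to 0.30, adjusted p = 0.412), and 3 of 4 mice had the lower value in the peritoneum. Cd22 made up between 35.5% and 46.4% of the counts of the 9 genes in liver stroma and between 43.0% and 88.4% in peritoneal stroma.

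For the genes of antibody-secreting cells, Mzb1 had 1.42, 1.58, 1.78 and 1.27 CPM in liver stroma and 0.747, 0.422, 0.0693 and 0.155 CPM in peritoneal stroma. The values of mice 3 and 4 in the peritoneum stood for 2 and 4 counts, and no peritoneal library reached the liver libraries. Mzb1 had a log2 fold change of -2.07, with a standard error of 0.55 and an adjusted p of 0.0162. Jchain (chr5:88949537-88956916, - strand, listed as Igj in that annotation) had 13.8, 10.9, 15.0 and 11.8 CPM in liver stroma, a narrow range. In peritoneal stroma it had 3.59 and 5.72 CPM in mice 1 and 2 but 0.0346 and 0.116 CPM in mice 3 and 4, which were 1 and 3 counts. The groups did not overlap, yet the spread within the peritoneal group was larger than its mean (2.36 ± 2.78 CPM against 12.9 ± 1.87 CPM in liver stroma). The log2 fold change was -2.42 (95% confidence interval -4.50 to -0.34), and the gene was not called, with an adjusted p of 0.0724. Without the peritoneal library of mouse 2 it was called, with a log2 fold change of -3.32 and an adjusted p of 0.0467.

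**Figure D2:**
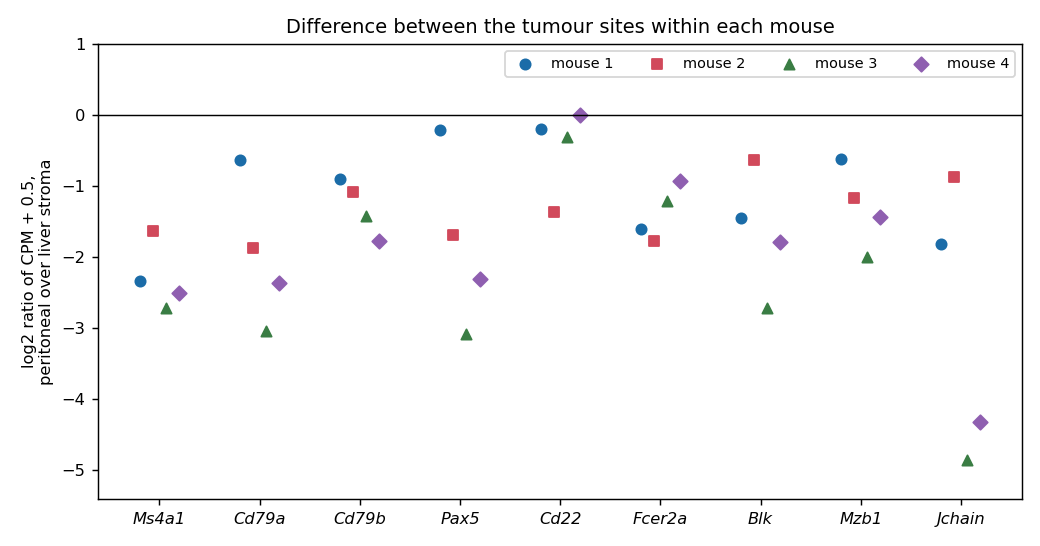
Log2 ratio of CPM + 0.5 in peritoneal over liver stroma within each mouse, for the 9 genes, with 1 marker per mouse and a line at 0. The widest spread is that of Jchain, from -4.85 in mouse 3 to -0.87 in mouse 2, and the Cd22 marker of mouse 4 sits on 0.

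Mice differed in how far the sites were apart. The log2 ratio of CPM + 0.5 for Cd79a ran from -3.03 in mouse 3 to -0.63 in mouse 1, and that of Pax5 from -3.07 to -0.21 in the same mice. Mouse 3 had the lowest peritoneal level of Cd79a, Pax5, Blk, Mzb1 and Jchain. Ms4a1 and Fcer2a did not follow this order, since their lowest peritoneal library was that of mouse 1. The ratios of Ms4a1 ran from -2.71 to -1.64, and those of Fcer2a from -1.77 to -0.92.

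The libraries were sequenced in several lanes, which the labels tie to the libraries. Lane 1 held 2 liver and 1 peritoneal stroma libraries, lane 2 held 1 and 2, and lane 3 held 1 of each. All 9 genes were lower in the peritoneum in lanes 1 and 2, and 8 were in lane 3, where Cd22 had a log2 ratio of 0.0036. With lane as a term in the fit, the same number of genes, 7, was called.

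Summed over the 9 genes, liver stroma had 75.9 ± 7.66 CPM and peritoneal stroma 33.6 ± 10.0 CPM. Without Cd22 the sums were 45.6 ± 7.49 and 10.1 ± 5.82 CPM. Genes of leukocytes in general were set beside these sums. Ptprc was at 974 ± 38.1 CPM in liver and 552 ± 52.4 CPM in peritoneal stroma, a log2 fold change of -0.77 (adjusted p = 2.09e-04), which is under the fold required for a call. The summed level of 10 leukocyte genes lay between 6377 and 7864 CPM in liver and between 4110 and 5051 CPM in peritoneal stroma, with a median log2 fold change of -0.55. Of these 10 genes, 1 was called lower and 9 were not called. The counts of the 8 genes without Cd22 came to between 0.508% and 0.714% of those leukocyte counts in liver stroma and between 0.0661% and 0.343% in peritoneal stroma, again without overlap. When the libraries were scaled to the leukocyte genes in place of TMM, the median of all genes moved to 0.60 and 5 of the 9 genes were called lower. Cd79b (-0.84, adjusted p = 0.0357) and Pax5 (-1.36, adjusted p = 0.0520) were then no longer called, and the log2 fold change of Cd22 turned to 0.27 (adjusted p = 0.312).

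**Figure D3:**
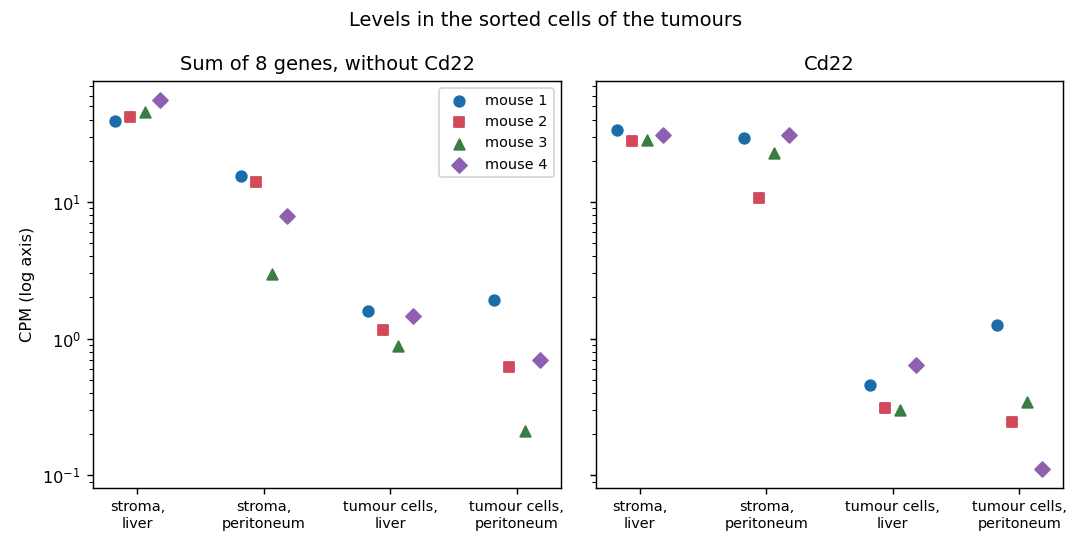
CPM (log axis) summed over 8 genes (left) and of Cd22 (right) in each library of the sorted cells, with 1 marker per mouse. The sum without Cd22 falls from 39.2 to 56.2 CPM in liver stroma to 2.98 to 15.6 CPM in peritoneal stroma and at most 1.90 CPM in tumour cells. Cd22 overlaps between the stromal groups, with 28.1 to 33.9 CPM in liver and 10.6 to 31.0 CPM in peritoneal stroma.

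Levels of different genes can be compared only per length. Divided by the exon length of the mm9 annotation, the liver stroma held 7.12 ± 2.16 CPM per kb of Cd79a, 7.09 ± 1.03 of Jchain and 7.02 ± 0.630 of Cd22, 3 levels that did not differ beyond their spread. Cd79b followed with 2.85 ± 0.472, Ms4a1 with 2.10 ± 0.613, Pax5 with 1.98 ± 0.889 and Mzb1 with 1.67 ± 0.241 CPM per kb, of which each neighbouring pair lay within its SDs. Blk had 1.15 ± 0.360 and Fcer2a 0.810 ± 0.180 CPM per kb. In peritoneal stroma Cd22 stood alone at 5.44 ± 2.16 CPM per kb, ahead of Cd79a at 1.76 ± 1.14, Jchain at 1.30 ± 1.53 and Cd79b at 1.002 ± 0.481. The other genes had 0.493 CPM per kb or less.

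Each of the 9 genes had a higher mean level in the stromal sort than in the tumour cells of the same site. In liver tumours all 9 were called higher in stroma than in tumour cells, where 27.5% of all 14620 genes tested were. Their log2 fold changes of stroma over tumour cells ran from 3.25 for Fcer2a to 7.95 for Jchain (adjusted p by edgeR from 7.27e-11 to 1.44e-05). In peritoneal tumours only Cd79a, Cd79b and Cd22 had enough counts to be tested. All 3 were called higher in stroma, against 27.3% of 14584 genes. At either site, genes this low in tumour cells passed the count filter through stroma, which favours such a call. Set beside the share over all genes, these calls are therefore a description and no support. Over tumour cells, stroma had log2 fold changes of 2.50 for Cd79a (SE 0.81, adjusted p = 0.0198) and 5.53 for Cd22 (SE 0.69, adjusted p = 1.59e-04), while Cd79b had 0 counts in the 4 tumour cell libraries and 148 in the stroma. The 6 genes that were not tested there had between 35 and 222 counts in the 4 peritoneal stroma libraries and between 1 and 18 in the tumour cells. Among them Fcer2a had 44 counts in stroma and 18 in tumour cells. In mouse 1 its level was higher in tumour cells (0.187 against 0.149 CPM), as was that of Mzb1 in mouse 3 (0.0768 against 0.0693 CPM).

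In tumour cells the sum of the 9 genes lay between 1.18 and 2.11 CPM in the liver and between 0.557 and 3.15 CPM in the peritoneum. The 3.15 CPM were those of mouse 1, whose library also had the most Ptprc, and the next highest peritoneal library, that of mouse 2, had 0.870 CPM. Most of the sum came from Cd79a (0.687 ± 0.333 and 0.443 ± 0.446 CPM) and Cd22 (0.427 ± 0.158 and 0.487 ± 0.516 CPM). Only these were tested between the sites, and neither was called, with log2 fold changes of -0.65 (95% confidence interval -2.18 to 0.88, adjusted p = 0.649) and 0.20 (-1.22 to 1.62, adjusted p = 0.893). Neither had an unadjusted p under 0.05, and DESeq2 called 0 as well, while of 13074 genes 0.329% were called lower and 0.673% higher in peritoneal tumour cells. In the cultured BMEL WT, RasLOW and RasHIGH cells the 9 genes had between 0 and 14 counts per library in all, or at most 0.489 CPM.

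Among 30 other genes known from the B lineage, 29 were tested between the stromal groups, 13 were called lower in the peritoneum and 1 higher. Their median log2 fold change was -0.84. Cr2, the complement receptor CD21, had 2.76, 3.47, 2.97 and 4.17 CPM in liver stroma and 0.336, 0.328, 0.0693 and 0.388 CPM in peritoneal stroma, with no overlap and a log2 fold change of -3.53 (adjusted p = 1.55e-04). Fcmr, the receptor for IgM, Ly6d, a surface protein of early and mature B cells, and Pou2af1, a co-activator of octamer factors, were called with log2 fold changes of -2.74, -2.48 and -2.38, though Ly6d was not without the peritoneal library of mouse 4 (adjusted p = 0.0554). The gene called higher was Ebf1, an early B-cell factor that is also expressed in mesenchymal cells, at 7.18 ± 3.17 CPM in liver and 59.9 ± 10.7 CPM in peritoneal stroma (log2 fold change 3.09, adjusted p = 6.72e-05). The summed level of 4 fibroblast genes moved with it, from 2972 to 6111 CPM in liver to 42827 to 64545 CPM in peritoneal stroma, and its part in the Ebf1 result was not tested.

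Of 25 genes that act below the B-cell receptor, all tested, 3 were called lower and 0 higher in peritoneal stroma, with a median of -0.56. One of these was Cr2, described above. Of 12 genes of B-1 cells, 11 were tested and 1 was called, Ctla4, an inhibitory receptor that is best known from T cells (log2 fold change -1.59, adjusted p = 0.00181). Cd5, the gene after which the B-1a cells are defined, was under the filter, with 37 counts over the liver and 19 over the peritoneal stroma libraries.

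Of 27 genes for survival and homing of B cells, 21 were tested, 4 were lower and 2 higher in peritoneal stroma. The lists share genes, and Cxcr5, Tnfrsf13c and Ltb were already counted among the 13 above, as was Cr2 among the receptor genes and Pou2af1 of the plasma-cell genes below. The receptors Cxcr5, which guides B cells into follicles, and Tnfrsf13c, the BAFF receptor, had log2 fold changes of -2.29 (adjusted p = 0.00221) and -2.15 (adjusted p = 0.00651). Their levels were 5.36 ± 1.16 and 1.74 ± 0.240 CPM in liver and 1.06 ± 0.685 and 0.376 ± 0.305 CPM in peritoneal stroma. The lymphotoxin gene Ltb was also called lower (-1.23). The last of the 4 was Pigr, the epithelial receptor that carries polymeric immunoglobulin with its joining chain, at 3.26 ± 2.96 CPM in liver and 0.316 ± 0.277 CPM in peritoneal stroma (log2 fold change -3.35, adjusted p = 0.0124). The summed level of 3 hepatocyte genes moved with it, from 17.2 to 156 CPM in liver to 0.375 to 1.61 CPM in peritoneal stroma, and its part in the Pigr result was not tested. Ligands differed in their direction. Cxcl12, the chemokine of B-cell precursors and plasma cells, was at 13.6 ± 1.66 CPM in liver and 173 ± 8.88 CPM in peritoneal stroma (log2 fold change 3.71, adjusted p = 4.95e-08), and Il7 was low but called higher (log2 fold change 2.14, adjusted p = 0.00276). All 4 fibroblast genes were called higher with them, with a median log2 fold change of 3.45, and their part in the levels of Cxcl12 and Il7 was not tested. The ligands Tnfsf13b (BAFF) and Tnfsf13 (APRIL) were not called and changed sign when scaled to leukocyte genes, with log2 fold changes of -0.44 (95% confidence interval -0.86 to -0.02, adjusted p = 0.101) and -0.26 (-0.90 to 0.38, adjusted p = 0.533). Cxcl13, the ligand of Cxcr5, was low and uneven (2.82 ± 3.34 and 1.38 ± 0.795 CPM, log2 fold change -1.01, adjusted p = 0.392). The TACI gene Tnfrsf13b had a log2 fold change of -0.43 (adjusted p = 0.00912), under the fold for a call, and 0.18 when scaled to leukocyte genes.

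**Figure D4:**
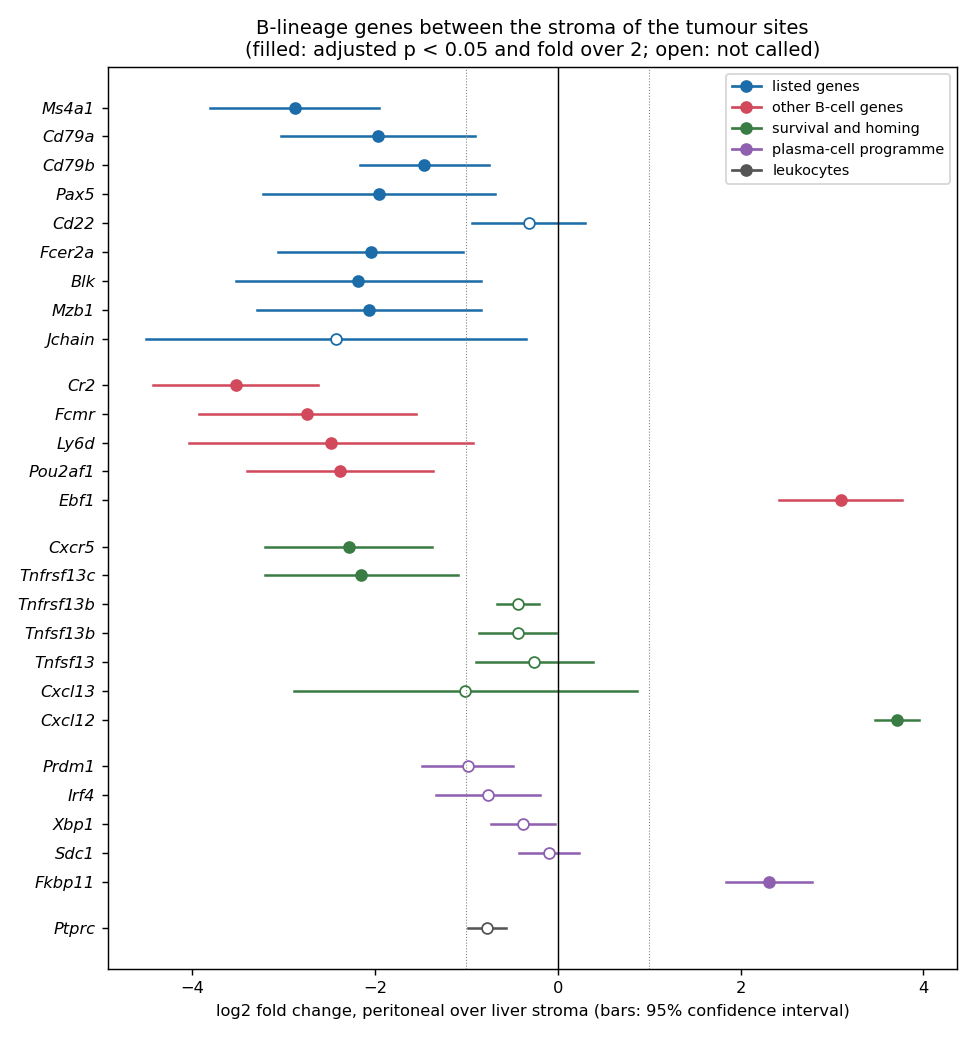
Log2 fold change of peritoneal over liver stroma (x axis) with its 95% confidence interval for the 9 genes, other B-lineage genes, genes of survival and homing, genes of the plasma-cell programme and Ptprc. Filled circles are called genes, open circles are not, and dotted lines mark a fold of 2. Ebf1, Cxcl12 and Fkbp11 stand on the right, and the 9 genes lie left of 0, with the interval of Cd22 crossing it.

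Of 19 other genes of the plasma-cell programme, 18 were tested, 2 were called lower (Pou2af1 and Slamf7, a surface receptor of plasma and other immune cells, at -1.22) and 2 higher, with a median of -0.44. Those higher were Fkbp11 (log2 fold change 2.32, adjusted p = 3.47e-05) and Txndc5 (1.10, adjusted p = 1.76e-05), both proteins of the endoplasmic reticulum that secretory cells of many kinds use. The part of the fibroblast genes, which were higher as well, in these 2 results was not tested. The transcription factors Prdm1 (Blimp-1), Irf4 and Xbp1 were not called, with log2 fold changes of -0.99, -0.76 and -0.38 and adjusted p values of 0.00811, 0.0441 and 0.0881. With the mouse as a block Prdm1 passed, with a log2 fold change of -1.04 (adjusted p = 0.00300), as it did with lane as a term (-1.10) and without the liver library of mouse 1 (-1.01) or 2 (-1.06) or the peritoneal library of mouse 4 (-1.24). Irf4 was called without the peritoneal library of mouse 2 (log2 fold change -1.08, adjusted p = 8.09e-04). Sdc1, the plasma-cell surface marker CD138 that epithelia also carry, was at 279 ± 40.2 CPM in liver and 253 ± 44.1 CPM in peritoneal stroma (log2 fold change -0.09, adjusted p = 0.677). Scaled to leukocyte genes, Xbp1 turned to 0.24 (adjusted p = 0.303 by edgeR) and Sdc1 to 0.55 (adjusted p = 0.00571), which is under the fold for a call. Tnfrsf17, which encodes BCMA and is restricted to late B-lineage cells, had 14 counts in liver and 11 in peritoneal stroma and was not tested. All 11 peritoneal counts were in mouse 1 (0.411 CPM). The liver stroma of mice 1 to 4 had 0, 0.105, 0.171 and 0.238 CPM. Of 13 immunoglobulin genes listed, 11 were not found by symbol in the count table, and the other 2 were under the filter.

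Markers of other cell types were set beside the 9 genes. Of 5 natural killer cell genes, 4 were called lower in peritoneal stroma, and their summed level ran from 30.4 to 50.2 CPM in liver and from 9.18 to 15.0 CPM in peritoneal stroma. Of these calls, Ncr1 and Eomes were lost without several single libraries (adjusted p up to 0.0721 and 0.110) and with lane as a term (0.0625 and 0.0560), and Eomes also with the mouse as a block (0.0599). When scaled to leukocyte genes, neither Ncr1 (log2 fold change -0.78, adjusted p = 0.146) nor Eomes (-0.64, adjusted p = 0.142) was called. The other called genes of this list kept their call under every alternative, the leukocyte scaling included. Of 5 genes of plasmacytoid dendritic cells, which share some of the 9 genes, 1 was called lower and 1 higher, with summed levels of 189 to 249 CPM in liver and 216 to 283 CPM in peritoneal stroma. Their defining gene Siglech had 31.7, 20.1, 24.8 and 18.0 CPM in liver and 18.4, 8.06, 7.62 and 3.18 CPM in peritoneal stroma (log2 fold change -1.30, adjusted p = 0.0461). The groups overlapped, and the Siglech call was lost without the peritoneal library of mouse 2 (adjusted p = 0.123) and without 6 of the other libraries, each left out alone. It was also lost without the count filter (0.0943) and when scaled to leukocyte genes (0.201). Ccr9 of the same list was lower in the peritoneum in all 4 mice but not called (log2 fold change -1.19, adjusted p = 0.134). Most of the summed level was Tcf4, with 121 ± 28.5 CPM in liver and 154 ± 16.5 CPM in peritoneal stroma. Of the 5 log2 fold changes 3 were negative. Of 6 conventional dendritic cell genes 2 were lower, of 5 macrophage genes none was called, and all 3 Kupffer cell genes were lower, from summed levels of 172 to 503 CPM in liver to 1.46 to 14.3 CPM in peritoneal stroma. Of 7 T-cell genes tested, 2 were lower and 1 higher. Hepatocyte genes (2 of 2 tested lower), mesothelial genes (1 of 3 higher), endothelial genes (1 of 3 lower), genes of lymphoid stroma (0 of 2 called) and of red cells (0 of 1 called) were measured as well. The part of these cells in the levels of the 9 genes was not tested.

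Among 13542 genes with a mean of at least 1 CPM over the 8 stromal libraries, Pou2af1 (Pearson's r = 0.993), Tmc8, Snap29 and Gzmb (r = 0.987 to 0.991) were among the 5 genes whose log2 levels were most like the mean of the 9 genes. These points share the site difference and the libraries. After the mean of each site was subtracted, Nsmce2 came first (r = 0.988), and Pou2af1 (r = 0.961) was still among the 10 most alike. Within the 9 genes, each gene's correlation with the mean of the others over the 8 libraries was between 0.78 and 0.97, except for Cd22 with 0.36. After the site means were subtracted, Cd79a (0.93) and Pax5 (0.87) followed the others most closely, and Cd22 (-0.25) and Fcer2a (-0.33) did not. The correlations describe 8 libraries of 4 mice and carry no test.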

How the data were processed

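RNA was sequenced from sorted cells of paired tumours of 4 mice and from cultured cells. The authors used an mRNA library kit, mapped reads on mm9 by TopHat2 according to the methods of the study, and deposited a table of raw counts for each gene, without normalization. The submitters' processing notes also name FastQC, Bowtie 0.12.2, mm8 and mm10. The counting program, annotation and strand setting are not given in the sources used here. Positions and exon lengths came from GENCODE vM1 (mm9) and promoters from RefSeq.

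Each comparison used the libraries of its groups only, in R 4.3.3 with edgeR 4.0.16 (filterByExpr with a minimum count of 10, TMM, robust quasi-likelihood test) and Benjamini-Hochberg adjustment, with DESeq2 1.42.0 as an alternative. The steps were tested on simulated data. The 9 genes and the context lists were chosen with earlier results of these data known. Named are all 9 genes, from each context list up to 5 called genes with the largest change, a fixed set of B-lineage regulators, receptors and ligands, and the genes most alike. Results of some genes that this rule names are not reported here. Ltb, Ccr9 and Tcf4 were named after their values were seen. Every library was placed in its group by its label.

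Mouse numbers pair the libraries, since the labels give the same animal. Deviations from the group means of the paired stromal libraries had correlations over 13550 genes of -0.01, 0.20, 0.19 and 0.36. The mouse was left out of the fit and used as a block in an alternative. Further alternatives were RLE scaling, no filter, unadjusted p-values, all sorted libraries in 1 fit, library sizes set by 10 leukocyte genes, and fits without each library in turn. Lane as a term was added after the data had been seen.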

Additional observations from a re-analysis of the deposited data

Results flagged for a closer look

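In each group of 4 sorted libraries, every one of the 9 genes was examined for a library far from the others by Dixon's ratio at its 95% critical value. Of 36 such groups 1 was marked, where chance marks about 1 in 20. Ms4a1 and Blk in peritoneal tumour cells were not counted as marked. Each had 1 count over the 4 libraries, and a single library above 0 gives the largest possible ratio. In liver tumour cells Pax5 was at 0.367 CPM in mouse 2, with a ratio of 0.842, above the other 3 libraries. Pax5 had 28 counts in the 4 liver tumour cell libraries together.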

How the results depend on the processing

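In the stroma, 7 of the 9 genes were called under RLE scaling, DESeq2, no filter, the mouse as a replicate block, lane as a term and all sorted libraries in 1 fit, and 8 by unadjusted p. Leaving out each library gave 5 to 7. Scaling to leukocyte genes gave 5, and over all genes 3163 calls (3007 higher, 156 lower) against 1962 (1472 higher, 490 lower). That scaling reversed Cd22 (0.27), Tnfsf13b (0.18), Tnfsf13 (0.33), Tnfrsf13b (0.18), Sdc1 (0.55) and Xbp1 (0.24), since it moved the median of all genes to 0.60. Without single libraries Sdc1 ran from -0.18 to 0.037 and was reversed without the peritoneal stroma library of mouse 1, Cxcl13 ran from -1.35 to 0.29 and was reversed without the liver stroma library of mouse 1, and the cause was not tested. Between the tumour cells of the sites, where none of the 9 genes was called under any setting, 131 genes in all were called, 233 by DESeq2, 435 by unadjusted p, 271 with all sorted libraries in 1 fit, 80 with lane as a term, 42 with the replicate block, and 21 to 267 without single libraries. In peritoneal tumours 3 of the 9 genes were called higher in stroma than in tumour cells, 7 without the filter, 9 with all sorted libraries in 1 fit and 3 to 5 without single libraries, since those settings test more of them. The replicate block changed no call of the 9 genes, and among the others named only those of Prdm1 and Eomes. Slamf7, Ctla4 and Flt3 were no longer called when scaled to leukocyte genes. Levels resting on about 3 counts or fewer are imprecise, as for Jchain, Mzb1 and Blk in the peritoneal stroma of mouse 3. That library had 1, 2 and 1 counts of these genes at the highest total of its group, 32723797. The library of mouse 2 had 122, 9 and 20 counts at the lowest total, 23129017.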
